A study of Mus musculus with 36 samples.

Results

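Porcn, Mfsd14b and 2610306M01Rik are 3 genes of the 55487 in the morula count table, and they were chosen by their low unadjusted p-values between morulae sired by males on a high-fat diet (HFD) and a low-fat diet (LFD). Their morula difference is therefore a description here and was not tested again. Cauda spermatozoa of mice on the same diets were not used in the choice, and the members were tested there where their counts allowed. Young adult C57BL/6 wild-type males (C57BL/6N in the study's methods) were fed HFD or LFD for 2 weeks. Their spermatozoa fertilized, in vitro, oocytes of unexposed females, and the resulting embryos were collected at the morula stage, the compacted ball of cells before the blastocyst. Each diet had 3 morula libraries (MH5, MH6 and MH7 on HFD, ML1, ML2 and ML3 on LFD) and 3 libraries of swim-up purified cauda sperm (h1000, h3000 and h4000 on HFD, l1000, l2000 and l4000 on LFD). The sexes of the embryos and the number of embryos and fathers behind a library are not given in the sources used here, so that all tests measure the spread between libraries, which may be technical.

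Porcn encodes an acyltransferase of the endoplasmic reticulum that attaches a fatty acid to Wnt proteins. Without that lipid a Wnt ligand is not carried by Wls to the cell surface and does not bind Frizzled receptors. Preimplantation embryos carry several Wnt ligands and receptors, and the blastocyst forms without canonical Wnt signalling. Mfsd14b (Hiatl1) encodes a membrane protein of the major facilitator superfamily, the large family of solute carriers, whose substrate is not settled, and Mfsd14a is its close paralogue. 2610306M01Rik is a long noncoding RNA with no function known from its name, and it starts head to head with Aak1, the kinase that phosphorylates the clathrin adaptor AP2 in endocytosis.

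Porcn (ENSMUSG00000031169) lies on chromosome X from 8193848 to 8206525 on the minus strand of GRCm38, and GENCODE lists 7 transcripts of it, of which 4 code for protein. Mfsd14b (ENSMUSG00000038212) lies on chromosome 13 from 65064663 to 65112975, also on the minus strand, with 4 transcripts, of which 2 code for protein. 2610306M01Rik (ENSMUSG00000100164) has 1 transcript of 1 exon on chromosome 6 from 86848399 to 86849440 on the minus strand. GENCODE classes it as a bidirectional promoter lncRNA, and 76 bases separate it from the start of Aak1 on the plus strand. RefSeq places another Aak1 start at 86849284, inside the lncRNA, so that 157 bases of the lncRNA lie opposite Aak1. Strand-specific counting is not stated for these libraries, and reads from those 157 bases cannot be told apart. No annotated gene of the count table overlaps any of the 3 members.

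The 200 bases of the lncRNA that follow this shared stretch (chr6:86849084-86849283, minus strand, GRCm38, bases 158 to 357 of the GENCODE transcript) are shown because they identify the lncRNA outside the stretch that lies opposite either Aak1 start. The 30 bases around its start come from the RefSeq promoter table (chr6:86849428-86849457, minus strand, GRCm38.p6). The 250 bases before the Mfsd14b start come from the same table (chr13:65112983-65113232, minus strand). Each promoter window of that table runs from 250 bases before to 50 after a start. Porcn has no entry in it. Capitals mark motif matches. In the 30 bases labelled 2610306M01Rik upstream, which span the start, the second match lies after the start, inside the transcript.
2610306M01Rik transcript: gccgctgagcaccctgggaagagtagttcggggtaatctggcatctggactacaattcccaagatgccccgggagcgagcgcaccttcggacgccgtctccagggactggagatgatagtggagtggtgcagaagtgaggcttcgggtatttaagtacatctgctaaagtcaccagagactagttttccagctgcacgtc
2610306M01Rik upstream: cCCGGAAGTgacctgccaCCGGAAGTgctt
Mfsd14b upstream: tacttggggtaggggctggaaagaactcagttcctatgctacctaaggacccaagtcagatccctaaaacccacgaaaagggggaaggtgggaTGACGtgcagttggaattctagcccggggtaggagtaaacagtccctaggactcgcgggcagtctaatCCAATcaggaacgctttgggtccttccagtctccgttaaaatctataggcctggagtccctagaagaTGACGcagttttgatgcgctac

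The motifs searched on both strands were CCGGAAGT (an ETS site), TGACG (part of a cyclic-AMP response element), CCAAT (the NF-Y box), TATAAA (the TATA box) and GGGCGG (a GC box), picked after the sequences had been seen. The 2610306M01Rik window held CCGGAAGT 2 times, once from 16 to 9 bases before the start and once from base 2 to base 9 after it, and 3.89% of the 32851 promoter windows held it at all. The same window held 4 matches to GGGCGG, of which one pair overlapped, and which 35.7% of all windows hold. The Mfsd14b window held TGACG 157 and 22 bases before the start, a motif of 20.8% of windows, and CCAAT 89 bases before it, a motif of 37.4% of windows. It held GGGCGG once, after the start. Neither window held TATAAA, which 13.6% of windows hold. The 2610306M01Rik window was 79% G and C with an observed-to-expected CpG ratio of 0.96, and 8.32% of windows had a ratio at least as high. The Mfsd14b ratio was 0.608, which 35.3% of windows reached, against a median of 0.384 over all windows.

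Porcn, the Wnt acyltransferase, was higher in every HFD-derived library than in any LFD-derived one. Its level was 21.8, 31.5 and 26.6 CPM (reads scaled to a common library size, after TMM scaling) in MH5, MH6 and MH7 and 9.20, 14.6 and 15.3 CPM in ML1, ML2 and ML3. ML1 was the lowest of the LFD libraries and MH6 the highest of the HFD ones. The means were 26.6 ± 4.87 (SD, n = 3) and 13.03 ± 3.33 CPM, a 2.04-fold difference, and the values rest on 957 and 456 reads in all. The log2 fold change of the edgeR fit was 1.03 (SE 0.22), with an unadjusted p of 0.000294 that ranked the gene 8 of 13447 tested.

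Mfsd14b, the transporter family member, was lower in every HFD-derived library. It had 36.7, 39.4 and 36.6 CPM in MH5, MH6 and MH7, and 51.4, 68.7 and 55.0 CPM in ML1, ML2 and ML3. The HFD libraries sat close together, with a coefficient of variation of 4.31% against 15.6% on LFD, and ML2 stood above the rest. The means were 37.6 ± 1.62 and 58.3 ± 9.12 CPM (SD, n = 3), and the log2 fold change was -0.63 (SE 0.14), with an unadjusted p of 0.000401 at rank 10.

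2610306M01Rik, the lncRNA, was detected in all 6 libraries at low counts. It had 9, 8 and 7 reads in MH5, MH6 and MH7 and 44, 34 and 53 reads in ML1, ML2 and ML3. The highest HFD library held 0.794 CPM and the lowest LFD library 3.01 CPM, and the groups did not overlap. The means were 0.674 ± 0.120 and 3.71 ± 0.775 CPM (SD, n = 3). The ratio of summed counts was 0.180, with an exact 95% interval of 0.111 to 0.280 that covers counting error only. The log2 fold change was -2.45 (SE 0.53), with an unadjusted p of 0.000382 at rank 9.

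**Figure D1:**
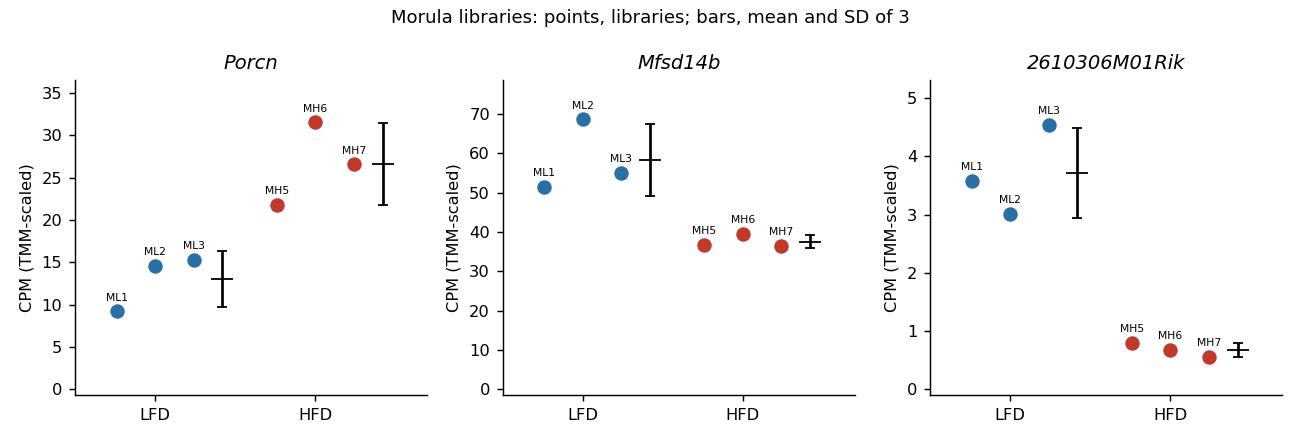
Level of each member in CPM after TMM scaling (vertical axes, linear, each with its own range) in the 3 LFD-derived and 3 HFD-derived morula libraries, each point being a library and the bar the mean ± SD. Porcn lies at 9.20 to 15.3 CPM on LFD and 21.8 to 31.5 CPM on HFD, while the other two members lie lower on HFD with no overlap.

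No member, nor any other gene, passed an adjusted p of 0.05 in morulae by edgeR's quasi-likelihood test with Benjamini-Hochberg adjustment, and the adjusted p of each member was 0.456. The background is 0% of genes called after adjustment and 6.38% at an unadjusted p under 0.05 (858 genes). All 3 members showed a gap between the diets, as did many genes: every HFD library lay above every LFD library in 5.94% of tested genes, and below in 6.18%. DESeq2 called 18 genes, or 0.134%, among them Porcn (adjusted p 0.0179) and Mfsd14b (adjusted p 0.0212), and gave the lncRNA no adjusted p. The members were chosen from these same libraries, so their adjusted p values here are a description and no further test. limma-voom called 0 genes, with 900 at an unadjusted p under 0.05.

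The threshold of the choice falls in a run of similar values. Ranked just before Porcn were 1110038B12Rik and mt-Co2, with unadjusted p of 0.000204 and 0.000255. The gene just after Mfsd14b was Cyp1a2, the cytochrome P450 of aryl hydrocarbon metabolism, with an unadjusted p of 0.000492. Of the 7 genes ahead of the members, 2 are encoded by the mitochondrial genome (mt-Atp6 and mt-Co2).

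The members differ in the size of their shift and in their level. A log2 fold change at least as high as that of Porcn was found in 408 genes, or 3.03% of those tested, and one at least as low as that of Mfsd14b in 687, or 5.11%. For 2610306M01Rik the count was 5, or 0.0372%. These sizes come from the contrast used in the choice and are a description. The lncRNA rests on 24 reads on HFD and 131 on LFD, and its mean level was at or above that of 21% of tested genes. Per kilobase of exon, Porcn had 8.88 ± 1.62 CPM on HFD and 4.34 ± 1.11 on LFD, Mfsd14b 6.79 ± 0.293 and 10.5 ± 1.65, and the lncRNA 0.647 ± 0.115 and 3.56 ± 0.743 (SD, n = 3). On this per-length scale Porcn lay below Mfsd14b on LFD and above it on HFD, and the HFD ranges of the pair, which did not overlap, were 7.27 to 10.5 and 6.61 to 7.13.

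**Figure D2:**
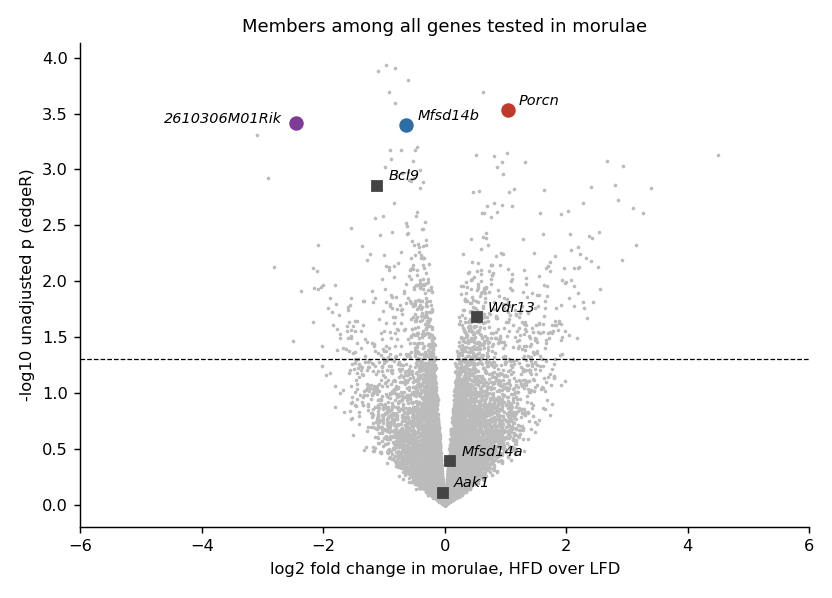
Log2 fold change in morulae, HFD over LFD (horizontal axis) against -log10 of the unadjusted edgeR p (vertical axis) for the 13447 genes tested (grey), with the members as circles, 4 other named genes as squares and a dashed line at the unadjusted threshold. The members lie near the top at log2 fold changes of 1.03, -0.63 and -2.45, while Mfsd14a and Aak1 lie near 0.

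The partners of the members did not show the same shift. Mfsd14a, the paralogue of Mfsd14b on chromosome 3, had 232 to 316 CPM on HFD and 240 to 265 CPM on LFD, with a log2 fold change of 0.09 (SE 0.11, edgeR adjusted p 0.926). The groups overlapped, and per kilobase its mean level was 36.1 CPM on HFD and 33.9 on LFD. Aak1, across the shared start region from the lncRNA, had 77.1 ± 9.50 CPM on HFD and 79.0 ± 6.80 on LFD (SD, n = 3), with a log2 fold change of -0.03 (SE 0.12, edgeR adjusted p 0.981).

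Of the 9 genes within 100 kb of Porcn, 6 were tested, 4 with a positive and 2 with a negative log2 fold change, and 0 passed after adjustment. Wdr13, a WD-repeat protein gene 60955 bases away on the same strand, was the neighbour with an unadjusted p under 0.05. It had 15.1 ± 1.48 CPM on HFD and 10.4 ± 0.698 on LFD, with a log2 fold change of 0.53 (SE 0.21) and an adjusted p of 0.713. Ebp, the sterol isomerase of cholesterol synthesis that lies 335 bases beyond the end of Porcn on the same strand, had a log2 fold change of -0.04 (SE 0.19). Tbc1d25, a GTPase-activating protein gene, stood at -0.32 (SE 0.24), Rbm3, a cold-inducible RNA-binding protein gene, at 0.14 (SE 0.10), its antisense gene Rbm3os at 0.24 (SE 0.60) and the RNA methyltransferase gene Ftsj1 at 0.02 (SE 0.18). Rbm3 and Rbm3os overlap, and their reads cannot be told apart without strand. None of the 9 genes within 100 kb of Mfsd14b had enough counts to be tested. Near the lncRNA, Aak1 and Anxa4 were tested, and Anxa4, an annexin gene, had a log2 fold change of 0.07 (SE 0.31).

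**Figure D3:**
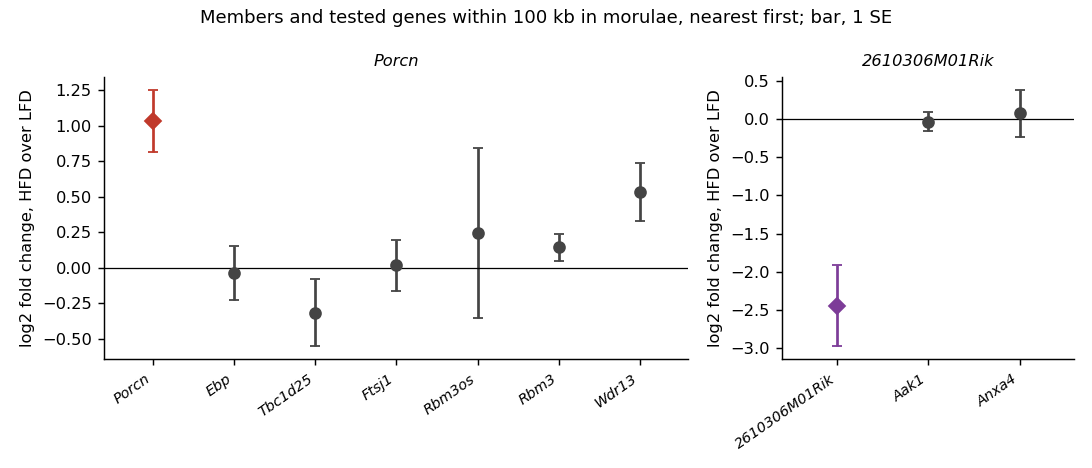
Log2 fold change in morulae, HFD over LFD (vertical axes, each with its own range), with bars of 1 SE, for Porcn and 2610306M01Rik (diamonds) and for the tested genes within 100 kb (circles), ordered by distance. Ebp and Aak1, the nearest tested genes, lie at -0.04 and -0.03.

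Porcn is X-linked, and the balance of male and female embryos in a library can move X-linked genes. Summed Y-linked expression was 73.7 ± 5.36 CPM on HFD and 77.8 ± 8.66 on LFD (SD, n = 3), with an exact two-sided permutation p of 0.6. Xist, the RNA that silences one X in female cells, was 1309 ± 629 CPM on HFD and 868 ± 124 on LFD, with overlapping groups and an exact two-sided permutation p of 0.3, where 3 against 3 cannot go below 0.1. In the edgeR fit its log2 fold change was 0.59 (SE 0.22, unadjusted p 0.019, adjusted p 0.704). Rlim, the X-linked ubiquitin ligase that promotes Xist expression, stood at -0.38 (SE 0.11, unadjusted p 0.0034, edgeR adjusted p 0.633), lower on HFD without overlap. MH6 held the highest Xist and also the highest Porcn, and ML1 the lowest of both, and the part of this in the Porcn difference was not tested. Over the 452 X-linked genes tested, the median log2 fold change was -0.01, with 23 higher and 9 lower on HFD at an unadjusted p under 0.05. Together these are 7.08% of X-linked genes, against 6.38% of all genes tested, of which 3.55% were higher and 2.83% lower.

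The libraries matched their label as morulae. Of the 14 morula and lineage markers 13 passed the filter, with Sox2 below it. The summed level of the list was 3789 to 4184 CPM on HFD and 4251 to 4644 on LFD, lower on HFD without overlap after TMM scaling. By library totals the groups overlapped, at 3881 to 4339 and 4302 to 4569 CPM. Most of that sum was Dppa3, at 2576 CPM on HFD and 2884 on LFD on average, with overlapping groups, and of the 13 markers 6 had positive and 7 negative log2 fold changes. Leukocyte markers summed to 3.02 to 3.53 CPM on HFD and 5.37 to 5.75 CPM on LFD, again without overlap, and Cd68 held 223 of the reads (2.21 and 4.08 CPM on average). Cd3e, the other tested marker, overlapped between the diets, and Lyz2, Tyrobp, S100a8 and S100a9 were at 0 in every library. Mfsd14b and the lncRNA were lower on HFD in the same libraries, and the part of these markers in them was not tested. Cumulus and granulosa markers summed to 4.89 to 10.3 CPM over all 6 libraries, with Fshr, Foxl2, Has2, Inha and Cyp19a1 at 0. Most of that sum was Star (3.67 CPM on HFD and 3.83 on LFD on average) and Amhr2 (3.57 and 2.79 CPM). Both were tested, and both overlapped between the diets. In bulk samples, fewer cells of a type and less RNA per cell cannot be told apart.

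Over the 6 morula libraries, which share the split by diet, each member had highly correlated genes among the 13447 tested. How many a gene outside the members would have was not worked out. The genes most like Porcn were Stk19 (Pearson r = 0.993 of log2 CPM), Ddb2, a DNA damage-binding protein gene (0.992), and Rccd1 (0.988), and 47 tested genes had r over 0.95. For Mfsd14b, Gm6204 (0.993) and Hdac2, a histone deacetylase gene (0.982), are given, with 31 genes over 0.95. For the lncRNA they were Ube2e3, a ubiquitin-conjugating enzyme gene (0.990), Ttc7 (0.990) and Lypla2, a depalmitoylating enzyme gene (0.990), with 37 genes over 0.95. Between members r was -0.70 for Porcn and Mfsd14b, -0.87 for Porcn and the lncRNA and 0.87 for Mfsd14b and the lncRNA. These are descriptions, since genes chosen for a gap between the same 2 diets must correlate.

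The pathway that Porcn serves was described with 95 further Wnt genes, of which 50 were tested in morulae. Of these, 21 had a positive and 29 a negative log2 fold change, 0 passed the adjusted threshold by edgeR, DESeq2 or limma-voom, and 5 had an unadjusted edgeR p under 0.05 (10%, against 6.38% of all tested genes). The median log2 fold change of the 50 was -0.09, against 0.01 over all genes. Among the 19 ligands, the proteins that Porcn modifies, 4 were tested, and all 4 had positive log2 fold changes. Wnt7b had 4.03 ± 1.43 CPM on HFD and 2.58 ± 0.400 on LFD (SD, n = 3), with a log2 fold change of 0.64 (SE 0.43, edgeR adjusted p 0.846). Wnt3a stood at 0.65 (SE 0.68), Wnt2b at 0.28 (SE 0.82) and Wnt10b at 0.26 (SE 0.47). None of the ligands passed even the unadjusted level.

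Wls, the carrier that takes the lipid-modified ligand onward, had 21 reads over the 6 libraries and was not tested. Of the 12 tested genes of secretion and extracellular modulation, 5 had positive and 7 negative log2 fold changes. The cargo receptor gene Tmed5 was at -0.28 (SE 0.14) and the retromer gene Vps35 at 0.20 (SE 0.10), and Vps26a, another retromer gene, at 0.02 (SE 0.09). The extremes were Kremen1, a Dkk co-receptor gene, at -0.68 (SE 0.42) and Dkk1, the secreted inhibitor, at 0.34 (SE 0.45), and none passed. Of 10 receptor genes tested, Fzd3 had an unadjusted p of 0.0462 with a log2 fold change of -0.29 (SE 0.13), Fzd7 stood at -0.61 (SE 0.61), and the co-receptor Lrp5 stood at 0.48 (SE 0.29). The receptor with the highest level, Lrp6, had 114 ± 10.8 CPM on HFD and 122 ± 11.9 on LFD, groups that overlapped. Summed over the list, receptors were at 269 to 282 CPM on HFD and 289 to 298 CPM on LFD, and ligands at 9.89 to 13.4 CPM on HFD and 6.82 to 9.53 CPM on LFD, neither overlapping after TMM scaling and both overlapping by library totals.

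Inside the cell, 18 genes were tested. Bcl9, a coactivator that binds beta-catenin, had 5.36 ± 0.848 CPM on HFD and 11.6 ± 3.12 CPM on LFD (SD, n = 3), with a log2 fold change of -1.11 (SE 0.28), an unadjusted p of 0.0014 and an adjusted p of 0.456. Gsk3b, the kinase that marks beta-catenin for destruction, stood at -0.19 (SE 0.09, unadjusted p 0.0444), and Dvl3, a Dishevelled gene, at 0.34 (SE 0.12, unadjusted p 0.0148). Among the 50 tested Wnt genes, every HFD library lay above every LFD library in 3 and below in 7. Bcl9, Gsk3b, Dvl3, Tle4, Axin2 and Ccnd1 are among these. Over all tested genes the shares were 5.94% above and 6.18% below. Dvl1 stood at 0.38 (SE 0.32) and Tle4, a corepressor gene, at -0.08 (SE 0.08). Beta-catenin itself (Ctnnb1) had a log2 fold change of 0.15 (SE 0.12). Of the 8 target genes tested, Axin2, a feedback inhibitor read as a sign of pathway activity, had 6.44 ± 0.377 CPM on HFD and 10.2 ± 2.54 on LFD, with a log2 fold change of -0.67 (SE 0.27, unadjusted p 0.0275, adjusted p 0.729). Nkd2 stood at 0.70 (SE 0.70), Myc at -0.20 (SE 0.15) and Ccnd1 at -0.26 (SE 0.17).

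**Figure D4:**
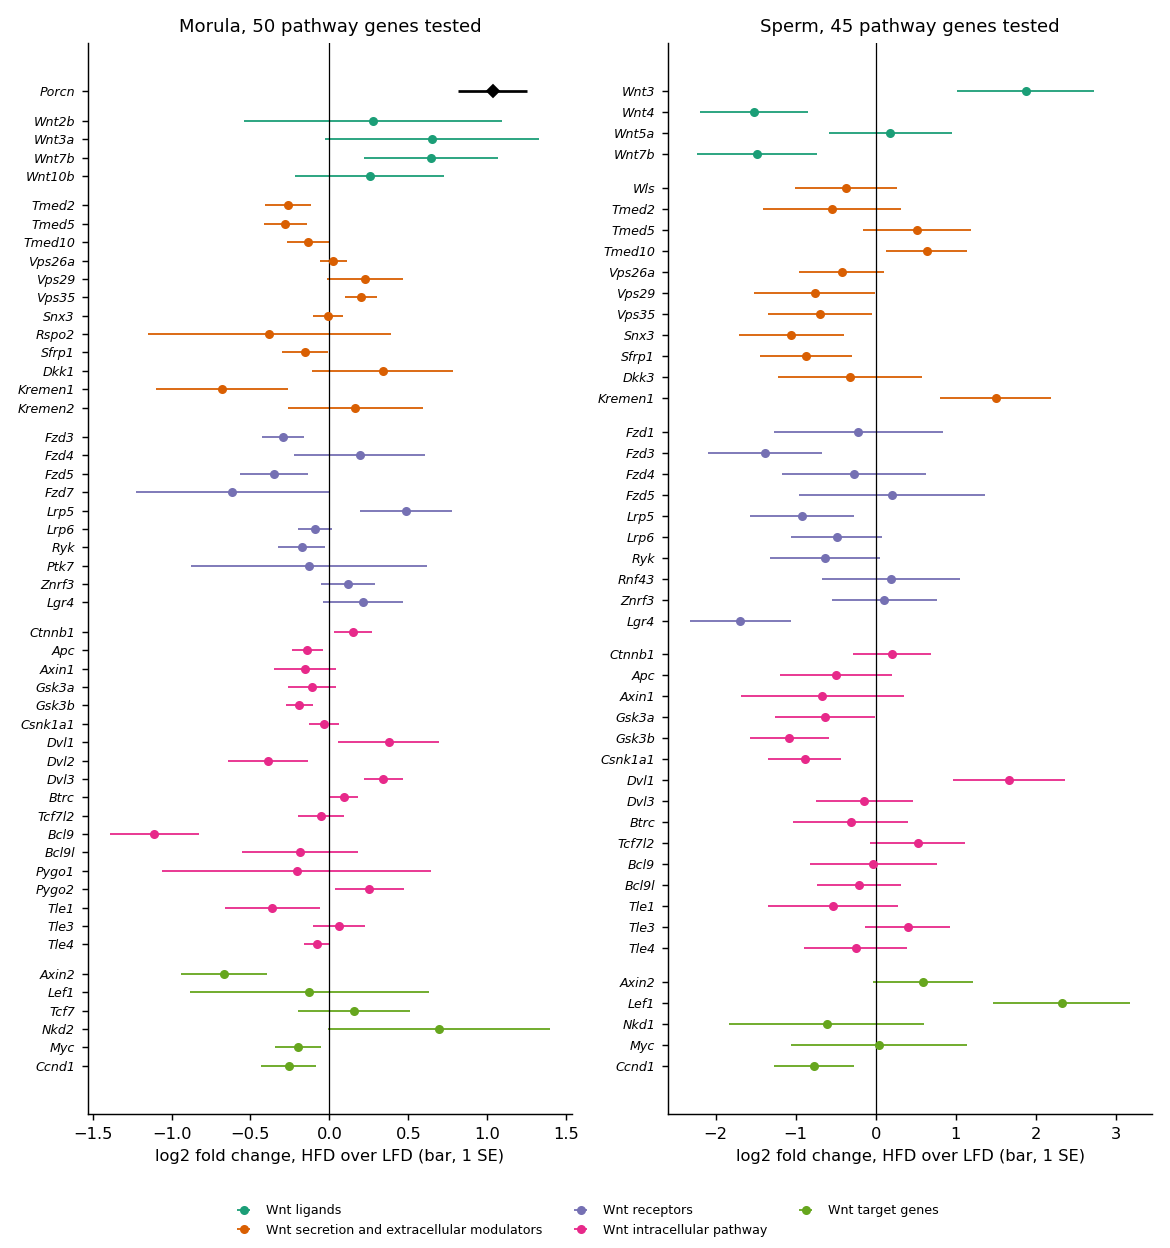
Log2 fold change, HFD over LFD (horizontal axes, each with its own range), with bars of 1 SE, for the tested Wnt pathway genes by role in morulae (left, 50 genes, with Porcn on top) and sperm (right, 45 genes); a gene of 2 roles is drawn once. Porcn at 1.03 lies above every other gene in the morula panel, and Bcl9 lies lowest at -1.11.

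In morulae 0 other tested genes of the members' families had an unadjusted p under 0.05, where 6.38% of all tested genes had one. Lists this short can neither show nor exclude a difference from that share. Of the other membrane-bound O-acyltransferase (MBOAT) genes, to which Porcn belongs by fold, 7 of 10 were tested, with log2 fold changes of -0.65 to 0.07 and 0 at an unadjusted p under 0.05. Lpcat3, the lysophospholipid acyltransferase with the highest level among them, stood at 0.03 (SE 0.11). Of 20 other MFSD genes 15 were tested, with log2 fold changes of -0.67 (Flvcr1) to 1.06 (Mfsd8, SE 0.74), a median of 0.04 and again 0 at an unadjusted p under 0.05. In sperm, 4 of 10 tested MFSD genes (40%, against 13% of all tested genes) and 1 of 7 MBOAT genes had one, and 0 passed after adjustment by edgeR. The summed MFSD level in sperm was 123 to 229 CPM on HFD and 60.8 to 108 CPM on LFD, without overlap after TMM scaling, while by library totals the groups overlapped at 63.8 to 101 and 92.3 to 278 CPM.

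Cauda sperm gave the members far fewer reads. The sperm libraries held 2560219 to 4062321 counts, against 11471251 to 12153141 in morulae, and transcripts of the mitochondrial genome took 78.1% to 84.3% of them on HFD and 43.5% to 64.7% on LFD. TMM factors were 0.442 to 0.716 on HFD and 1.52 to 2.58 on LFD, so that the scaling weighs on every sperm comparison. Sperm and late spermatid markers summed to 7971 to 24909 CPM on HFD and 1712 to 6737 on LFD without overlap, and epididymal epithelium markers to 4512 to 5327 and 2763 to 13011 CPM. By library totals the sperm markers overlapped between the diets, and the epididymal markers were lower on HFD without overlap (1996 to 3813 against 4195 to 33584 CPM). The leukocyte list summed to 631 to 1154 CPM on HFD and 1059 to 1557 on LFD, with overlap. By library totals it was lower on HFD without overlap (279 to 826 against 1608 to 4020 CPM). Most of the sum was Cd52 (846 and 1281 CPM on average), so the sum mainly follows that gene. Of the 8 tested, 6 had positive log2 fold changes, with a median of 1.42, and 2 had negative ones, Cd52 (-0.60) among them. The part of these markers in the values below was not tested.

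Porcn was below the filter on low counts in sperm. It had 0, 52 and 0 reads in h1000, h3000 and h4000, and 1, 7 and 5 reads in l1000, l2000 and l4000. All reads on HFD came from 1 library, and the other two lay below every LFD library, so the groups overlapped. The ratio of summed counts was 10.4 after TMM scaling and 3.18 by library totals, and without h3000 it was 0. A count of 0 allows up to 1.94 CPM in h1000 and 1.84 CPM in h4000, above the 0.226 to 1.47 CPM of the LFD libraries, so a lower level there was not detectable at this depth.

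Mfsd14b was the member with enough reads in sperm to be tested. It had 9, 10 and 9 reads in h1000, h3000 and h4000 and 11, 31 and 56 in l1000, l2000 and l4000. After scaling the level was 4.93 ± 1.30 CPM on HFD and 5.83 ± 3.05 on LFD (SD, n = 3), and l1000 lay below all HFD libraries. The log2 fold change was -0.26 (SE 0.83, edgeR adjusted p 0.929), so that no difference was detectable. By library totals it was -2.16 with an adjusted p of 0.0733, where the median of all tested genes was itself -1.82. The sperm test called 0% of 8643 genes after adjustment and 13% at an unadjusted p under 0.05.

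2610306M01Rik had no read in any HFD sperm library and 28, 0 and 3 reads in l1000, l2000 and l4000. With l2000 also at 0 the groups overlapped. The ratio of summed counts, HFD over LFD after TMM scaling, was 0, with an exact 95% upper bound of 0.328 for counting error only. The LFD reads came mostly from l1000, and without it 3 reads were left. The lncRNA was below the filter in sperm. With all counted genes kept, the edgeR adjusted p was 0.428 for the lncRNA and 0.528 for Porcn.

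**Figure D5:**
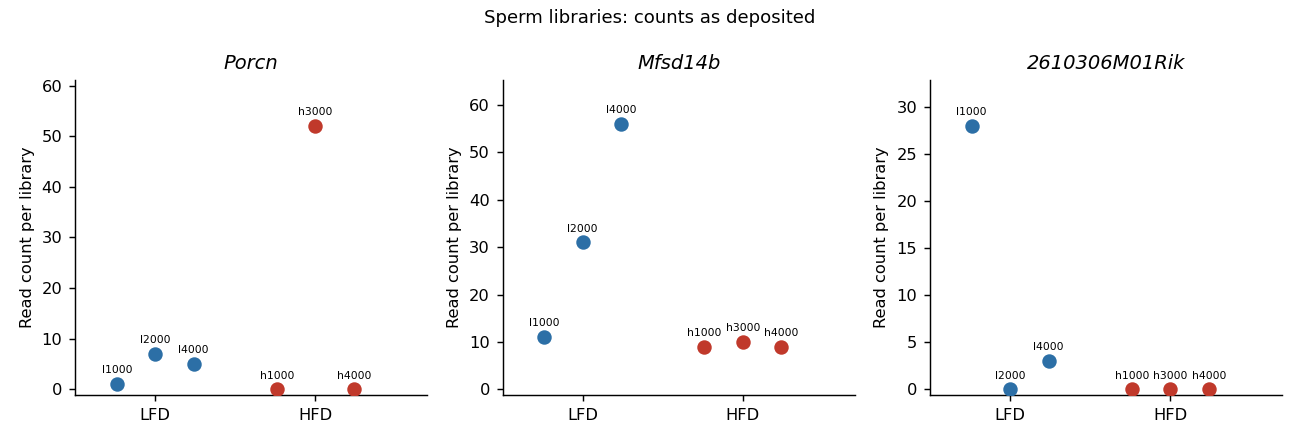
Reads per sperm library as deposited (vertical axes, linear, each with its own range), each point being a library. Porcn has 52 reads in h3000 and at most 7 elsewhere, Mfsd14b 9 to 56, and 2610306M01Rik 28 in l1000 and at most 3 elsewhere.

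The partners were better covered in sperm. Mfsd14a had 13.4 ± 8.82 CPM on HFD and 14.7 ± 6.27 on LFD, with a log2 fold change of -0.13 (SE 0.69, edgeR adjusted p 0.961). Aak1 had 38.0 ± 6.75 CPM on HFD and 22.5 ± 2.32 on LFD (SD, n = 3), and every HFD library lay above every LFD library, as in 8.12% of genes tested in sperm. Its log2 fold change was 0.75 (SE 0.47, edgeR adjusted p 0.543), while by library totals its ratio of summed counts was 0.500, so that its direction depends on the scaling.

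Of the 95 Wnt genes 45 were tested in sperm, 15 with a positive and 30 with a negative log2 fold change, and 0 passed the adjusted threshold by edgeR, DESeq2 or limma-voom. Scaling by library totals, under which the median of all tested genes was -1.82, called 21. Unadjusted p-values under 0.05 came from 7 genes (15.6%, against 13% of all tested genes), and the median log2 fold change was -0.32, against -0.07 over all genes. Lef1, a transcription factor gene of the pathway, stood at 2.32 (SE 0.86, edgeR adjusted p 0.285) and Lgr4, an R-spondin receptor gene, at -1.69 (SE 0.63, edgeR adjusted p 0.285). Among the ligands Wnt3 stood at 1.87 (SE 0.85) and Wnt4 at -1.52 (SE 0.67). Wls, too low in morulae, was measured in sperm at 12.4 ± 6.60 CPM on HFD and 15.9 ± 8.23 on LFD, with a log2 fold change of -0.37 (SE 0.64).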

How the data were processed

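RNA-seq counts of morulae and cauda spermatozoa were used, 3 libraries per diet in each. The authors deposited raw counts per gene, made with BBDuk (trimming), STAR (mapping to GRCm38) and featureCounts (assignment to genes), and the counts were used as they stand. Morulae were sequenced in paired-end and sperm in single-end reads from Nextera libraries. Library totals were 11471251 to 12153141 counts in morulae and 2560219 to 4062321 in sperm, and intervals and floors (3 counts for a count of 0, 95% exact intervals) cover counting error only. Diet was read from the letters of the column names. The description of 3 morula samples gives the opposite diet to their title and treatment, and the latter were followed; column numbers do not tie a library to a title. The 24 columns of 4 further tables (round spermatids, liver, gastrocnemius, eWAT) name no sample or group and are not used here.

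The tissues were fitted separately with edgeR 4.0.16 under R 4.3.3 (genes kept by filterByExpr at a minimum count of 10, scaling by TMM, quasi-likelihood test of HFD over LFD, two-sided, Benjamini-Hochberg, threshold 0.05) over all genes. CPM are TMM-scaled, and log2 CPM in correlations have a prior count of 2. DESeq2 1.42.0, limma-voom (limma 3.58.1), other scalings, no filter and leaving out each library were alternatives, and the edgeR, DESeq2 and limma-voom fits were tested on simulated data. The paper's methods name NOISeq, which was not run here. Members and gene lists were chosen with earlier results of these data known. Named genes were the members; the 10 lowest p in morula; in each list the highest level and the extreme changes; genes within 100 kb; the 3 most correlated genes per member (1 is not reported here); Mfsd14a; Xist and Y-linked genes. Others (Wls, Fzd3, Gsk3b, Dvl3, Tmed5, Vps35, Ctnnb1, Myc, Ccnd1, Wnt2b, Wnt10b, Rlim, Dppa3, Cd52, Cd3e, Cd68, Flvcr2) were picked later, after values had been seen, and of the lowest p values only those next to the members are printed. No pair of libraries agreed within sampling noise (chi-square per degree of freedom at least 8.19). Symbols came from the Ensembl identifiers (55141 of 55487 in the morula table), sequences from RefSeq (GRCm38.p6) and GENCODE, where 2 of 3 members had a promoter window. Plots were made in Python 3.11.15 (matplotlib 3.10.9).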

Additional observations from a re-analysis of the deposited data

Results flagged for a closer look

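Among the members and the listed genes, 2 list genes separated the diets in opposite directions in the morula and sperm libraries, and the difference between the tissues was not tested. Over all tested genes, the libraries of the diets did not overlap, in either direction, in 12.1% of genes in morulae and 20.4% in sperm. Cd68, a lysosomal gene on the leukocyte list, had a log2 fold change of -0.88 in morulae and 2.65 in sperm. Flvcr2, a major facilitator family gene, had -0.16 in morulae and 2.35 in sperm. None of the members did so, and groups of 3 were too small for the search for single outlying libraries.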

How the results depend on the processing

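In morulae the log2 fold changes of the members stayed within 1 SD of the libraries under DESeq2 size factors, library totals, no filter, DESeq2 and limma-voom. The choice of members fixes their direction, so this says nothing about its stability. Leaving out each library in turn gave 0.83 to 1.16 for Porcn, -0.72 to -0.50 for Mfsd14b and -2.58 to -2.28 for 2610306M01Rik, with ranks between 4 and 84. With no filter the edgeR adjusted p was 0.000754 for Porcn, 0.00692 for Mfsd14b and 0.0609 for 2610306M01Rik. The choice used these same libraries, so such values are no further test of the members. Genes called in morulae numbered 0 in the main analysis, 63 with no filter (29785 genes tested), 18 by DESeq2 and 0 to 2 without 1 library. Genes called in sperm numbered 0 in the main analysis, 3266 by library totals, where 3 of the genes with an unadjusted p under 0.05 were higher and 4496 lower on HFD, 41 with no filter, 295 by DESeq2 and 0 without 1 library, with 617 to 1762 at an unadjusted p under 0.05. Wnt genes called were 0 in every alternative in morulae, and in sperm 21 by library totals and 0 otherwise. Mfsd14b in sperm turned from -0.26 to 0.14 without l4000, in a range of -0.54 to 0.14 over the libraries left out, with an adjusted p between 0.864 and 0.991. The ratio of summed Porcn counts in sperm was 3.18 by library totals and 0 to 15.7 without 1 library, being 0 without h3000. The log2 ratio of summed Y-linked expression in morulae was -0.08, and -0.12 to 0.02 without 1 library.

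Morula libraries of the 2 diets share no number. In sperm, 1000 and 4000 occur on both diets, and deviations of same-numbered libraries correlated at 0.10 and -0.14. So few values can neither show nor exclude a pairing by number, and the main analysis used none. With the replicate block by number, edgeR called 2 sperm genes and the log2 fold change of Mfsd14b was 0.27 (adjusted p 0.997). With 3 libraries per diet an exact permutation test cannot go below 0.1, and the reads of Porcn and 2610306M01Rik in sperm were too few to pass the filter.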
